A study of Mus musculus with 2 samples.

Results

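Nonsense-mediated decay (NMD) isoforms are annotated transcripts of protein-coding genes whose reading frame ends early enough for the RNA to be a predicted target of that decay pathway. The transcripts described here carry the GENCODE M21 biotype for this class. They were chosen by 2 conditions on their gene, an annotated protein-coding isoform and a level of 5 TPM or more in both libraries of the first quantification. TPM is a transcript's level per unit of length, scaled to a fixed total in each library. These conditions kept 2757 of 7186 NMD isoforms, out of 141767 annotated transcripts, in 1618 of 4576 genes with such an isoform. The gene level was therefore used in the choice and is not a result, whereas the share of the gene held by its NMD isoforms was not used. Just inside the threshold lay R3hdm4 (5.0 and 7.45 TPM in replicates 1 and 2), Exosc9 (5.01 and 5.88) and Micall2 (5.01 and 5.80). Just outside lay Dhx16 (6.36 and 4.99 TPM), Tex10 (4.99 and 6.49) and Tmem110 (4.99 and 6.39).

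Macrophages were grown from the bone marrow of C57BL/6J mice, RNA was isolated from a fraction that the labels call nucleoplasmic in one field and nuclear in others, and this RNA was depleted of ribosomal RNA before total RNA sequencing. Both libraries had the same treatment. Cells received lipid A, the TLR4-activating portion of lipopolysaccharide, at 100 ng/ml for 12 h, were kept without it for 12 h, and received 100 ng/ml again for 90 min. The libraries form 1 group of 2 replicates, called biological replicates in the labels but with the same donor entry, so their spread may be technical. Sex and age of the animals were not recorded. With no untreated, cytoplasmic or decay-deficient sample among the files analysed, the values are levels within this condition, and no test between conditions was possible. All 8 macrophage markers checked reached 1 TPM in both libraries. None of the 20 markers of neutrophils, T and NK cells, B cells, dendritic cells, stromal and endothelial cells or erythroid cells did, and the summed level of any of these 6 lists was at most 1.06 TPM. Ly6g, Elane, Cd3e, Cd3g, Ncr1 and Hba-a1 were listed at 0 in both. Replicate 1 held 29391691 expected gene counts and replicate 2 held 17785123. NMD isoforms took 477957 and 221313 of these, 8.07% and 6.85% of the counts of their genes, and the median member had 9.03 and 2.17 counts. Many single isoforms are therefore measured on few reads.

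Nonsense-mediated decay removes mRNAs in which a ribosome stops upstream of an exon junction complex, the protein mark that splicing leaves near each exon junction. The helicase UPF1, with UPF2, UPF3 and the SMG proteins, recognises such a stop and starts degradation. Because recognition needs translation, decay is largely a cytoplasmic process, and RNA taken from the nucleus has mostly not yet met a ribosome. Many splicing factors use the pathway to limit their own level: they promote a poison exon, a cassette exon with an in-frame stop, in their own transcripts. In macrophages, alternative splicing also yields such isoforms from immune genes.

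The position of the stop defines the class. In 2736 of the 2757 members (99.2%) the stop codon ended at least 50 bases upstream of the last exon junction, at a median distance of 329 bases, whereas 37 of 4670 protein-coding isoforms with a complete stop in the same genes (0.792%) had such a stop. Among the members the stop was TGA in 57.7%, TAA in 22.5% and TAG in 19.8%, against 51.7%, 25.9% and 22.4% in those protein-coding isoforms. The stop lay in sequence that a protein-coding isoform also uses as exon in 1663 members. In 571 members it lay in an exon that overlaps no protein-coding exon. Poison exons fall in this group, but it was not limited to cassette exons: in Srsf4-204 the stop lies in exon 1 of 6. In 364 members the stop lay in added sequence of an extended exon or a kept intron. In 159 it was the stop of a protein-coding isoform, with further splicing downstream of it.

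The sequences that end the reading frame are shown for 12 members that the results turn on, chosen to cover these layouts and the gene groups below. Each run is the 45 coding bases before the stop, 5′ to 3′ in the transcript, followed by the stop codon in capitals (GENCODE M21, mm10).
Srsf3-201: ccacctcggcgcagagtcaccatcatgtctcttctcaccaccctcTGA
Tra2a-202: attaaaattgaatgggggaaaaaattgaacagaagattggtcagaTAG
Srsf6-201: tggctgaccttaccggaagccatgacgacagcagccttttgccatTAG
Hnrnpa1-204: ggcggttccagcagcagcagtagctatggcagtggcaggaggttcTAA
Ddx5-208: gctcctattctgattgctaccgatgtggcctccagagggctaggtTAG
Rgs1-204: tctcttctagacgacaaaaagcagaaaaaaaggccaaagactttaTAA
Khnyn-203: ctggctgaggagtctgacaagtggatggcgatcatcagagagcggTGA
Rnf114-203: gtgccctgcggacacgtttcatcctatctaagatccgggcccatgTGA
Gbp4-202: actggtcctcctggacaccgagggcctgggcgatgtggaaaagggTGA
Mx1-205: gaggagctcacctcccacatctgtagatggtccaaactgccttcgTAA
Ctsh-202: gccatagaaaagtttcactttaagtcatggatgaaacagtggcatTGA
Rpl12-201: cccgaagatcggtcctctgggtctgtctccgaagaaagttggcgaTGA

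Several of these stops fall shortly after an exon junction. In Rnf114-203 the stop (chr2:167510904-167510906, + strand) begins 28 bases into exon 2 of 5, and in Rpl12-201 (chr2:32962594-32962596, + strand) 20 bases into exon 3 of 7. In Mx1-205 (chr16:97451528-97451530, - strand) it begins 21 bases into exon 9 of 11, in Ctsh-202 (chr9:90062723-90062725, + strand) 6 bases into exon 3 of 11, and in Gbp4-202 (chr5:105125622-105125624, - strand) 2 bases into exon 4 of 11. All of these 5 stops lie in sequence that is also exon in a protein-coding isoform. In Srsf3-201 (chr17:29039485-29039487, + strand) and Tra2a-202 (chr6:49252965-49252967, - strand) the stop lies in an exon outside all protein-coding exons, exon 4 of 7 and exon 2 of 9. In Hnrnpa1-204 (chr15:103244012-103244014, + strand) it is a stop that a protein-coding isoform uses, in exon 10 of 13, and the last junction follows 1801 bases later. Srsf6-201 (chr2:162932964-162932966, + strand) also shares its stop with an isoform annotated as protein-coding, in exon 3 of 7.

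NMD isoforms held a small part of most of their genes. The share of a gene is the percent of its transcript TPM on all its NMD isoforms. Its median over the 1618 genes was 3.81% and 2.44% in replicates 1 and 2, on average 3.13% ± 0.971 (SD, n = 2). The middle 50% of genes lay between 0.573% and 12.7% in replicate 1 and between 0 and 11.3% in replicate 2. In 358 genes (22.1%) the share was above 10% in both libraries, and in 252 genes it was 0 in both. By the second quantification the medians were higher, 7.97% and 6.62%. Summed over all these genes, NMD isoforms held 9.89% and 8.55% of the TPM by the first quantification, more than the median share of a gene.

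**Figure D1:**
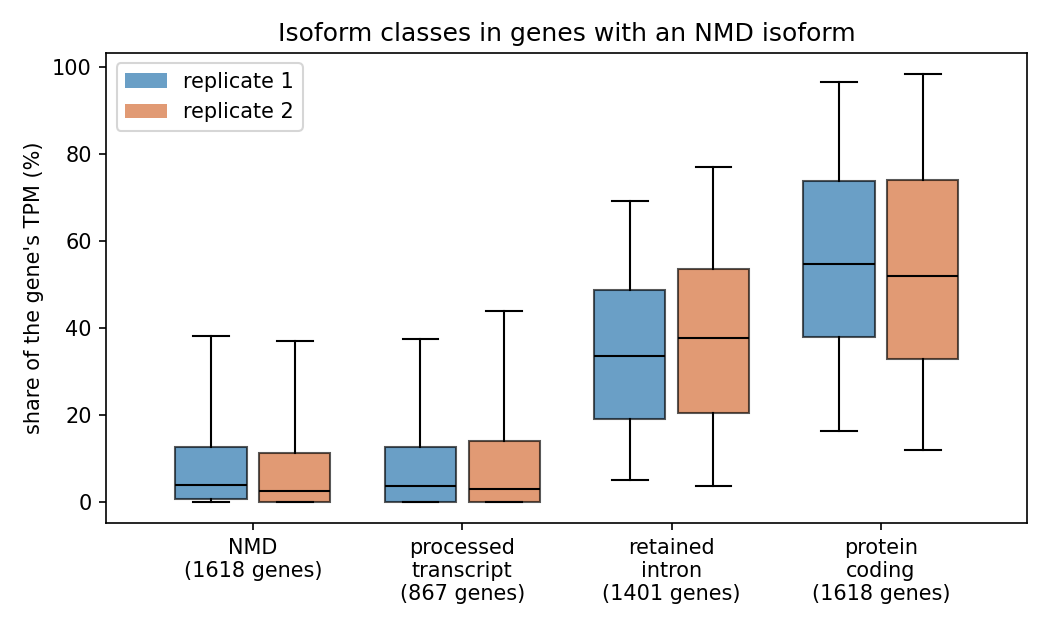
Share of the gene's TPM (first quantification, percent) on NMD, processed-transcript, retained-intron and protein-coding isoforms in the 1618 genes with an NMD isoform, or as many of them as hold the class. Boxes show the middle 50% of genes with the median as a line, whiskers the 5th to 95th percentile, blue replicate 1 and orange replicate 2. NMD medians are 3.81% and 2.44%, against 33.6% and 37.6% for retained introns.

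Retained-intron isoforms, which keep an intron and are mostly held in the nucleus, took far more of the same genes. Their median share was 33.6% and 37.6% over 1401 genes, and protein-coding isoforms took 54.7% and 52.0% over all 1618. In the 1401 genes that hold both classes, the NMD share minus the retained-intron share had a median of -26.4 percentage points in replicate 1 and -30.4 in replicate 2. The NMD share was the lower of the pair in both libraries in 1195 genes and the higher in both in 96. Processed-transcript isoforms, spliced but without an annotated reading frame, had medians of 3.71% and 2.97% over 867 genes by the first quantification and 13.5% and 13.0% by the second. Summed over genes, they held 4.57% and 5.23% of the TPM by the first.

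Many members were listed at 0. In both libraries at once this held for 718 of 2757 NMD isoforms (26.04%), for 26.3% of the 6442 protein-coding isoforms and for 5.19% of the 4723 retained-intron isoforms of the same genes. The percent at 0 was 30.9% in replicate 1 and 45.5% in replicate 2, the library with fewer counts. For protein-coding isoforms it was 29.9% and 38.2%. At the other end, 524 members reached 1 TPM in both libraries. Members per gene ranged from 1, in 962 genes, to 18 in Slc4a7, a sodium bicarbonate cotransporter gene. There Slc4a7-215 alone held 16.1% and 17.2% of the gene, and 13 of the other 17 were listed at 0 in both libraries.

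In 31 genes NMD isoforms held over 50% of the TPM in both libraries. Among single isoforms 18 members (0.653%) did so, against 2.78% of all isoforms of the 1618 genes. Of the 2757 members in these 1618 genes, 58 were the highest isoform of their gene in both libraries. Khnyn, which encodes a cofactor of the antiviral protein ZAP, gave 69.9% and 83.8% on Khnyn-203. Ppcdc, a gene of coenzyme A synthesis, gave 74.0% and 74.3% on Ppcdc-213. Rnf114, a ubiquitin ligase gene, gave 70.8% and 73.9% on Rnf114-203, and its leading protein-coding isoform 27.1% and 26.1%. Atrip, whose protein carries the ATR kinase to damaged DNA, gave 70.8% and 66.9% on Atrip-204, and Sh2b3, an adaptor that restrains cytokine signalling, 66.6% and 67.9% on Sh2b3-205. These shares were above 50% in each library, with spreads between replicates of 0.964 (Sh2b3) to 9.86 points (Khnyn; SD of the gene share, n = 2). Atrip-204 keeps 1 intron of a protein-coding isoform and Sh2b3-205 keeps 2, so reads of unspliced RNA can be assigned to them. Khnyn-203 and Ppcdc-213 keep no whole intron, but the stop of each lies in added sequence of an extended exon. They have 2054 and 218 bases outside the protein-coding exons. The part of reads of unspliced RNA in these shares was not tested.

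By the mean of the replicates, Bak1, a mitochondrial effector of apoptosis, stood highest of the 31 with 78.5% and 88.8% of its TPM on 2 NMD isoforms, although in replicate 1 Hnrnpa1 (80.7%) and Pcnp (79.9%) were higher. Ctsh, the gene of the lysosomal protease cathepsin H, gave 50.9% and 52.4% on Ctsh-202 at gene levels of 88.6 and 113 TPM. Nlrp1b, an inflammasome sensor, gave 51.3% and 51.3%, and Cd300c2, a myeloid surface receptor, 58.2% and 51.3%. Rabggtb, which encodes a subunit of the enzyme that attaches lipid to Rab proteins, spread 52.6% and 56.2% over 9 NMD isoforms, of which Rabggtb-207 led with 20.97% and 25.7%.

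**Figure D2:**
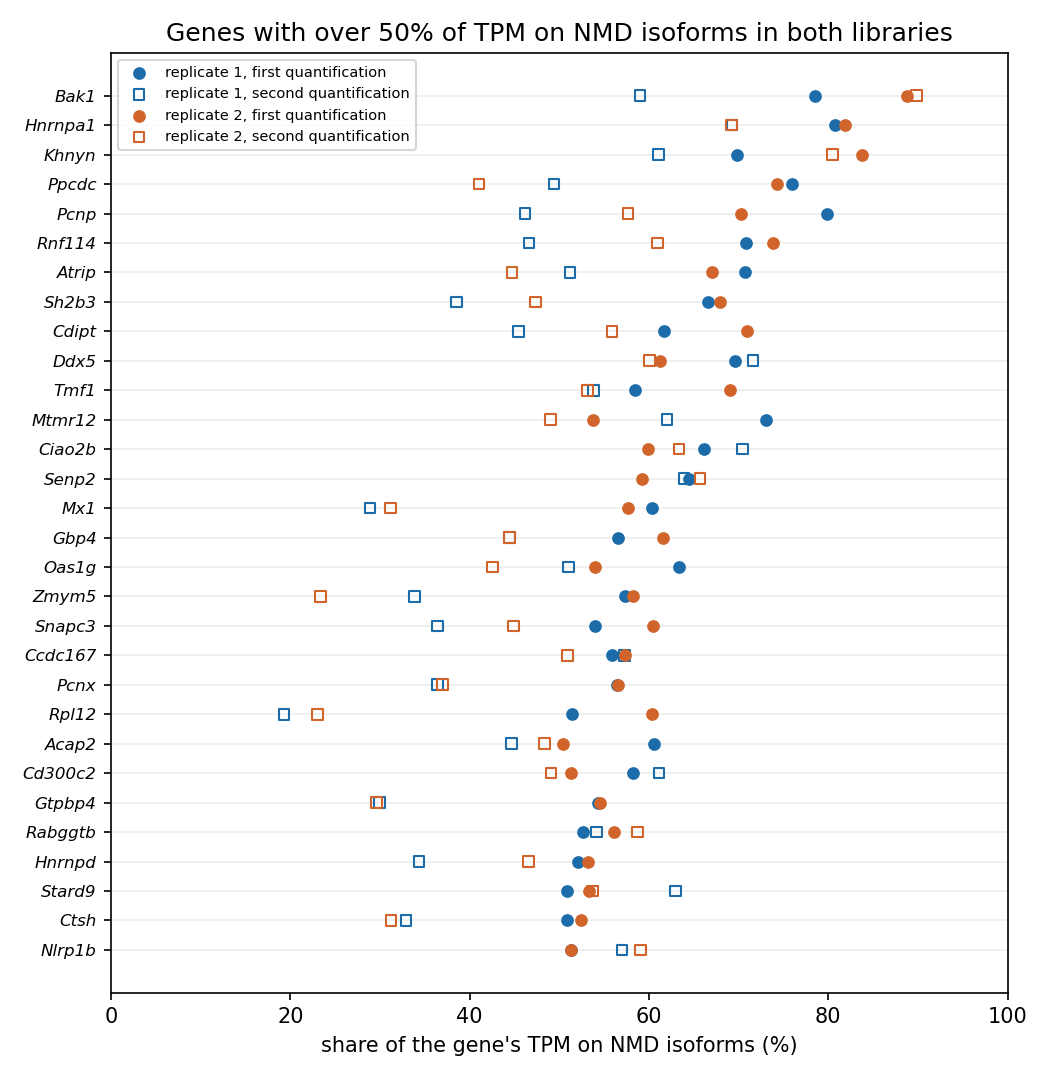
Share of the gene's TPM on NMD isoforms (percent) in 30 of the 31 genes above 50% in both libraries, ordered by the mean of the first quantification. Filled circles are the first and open squares the second quantification, blue replicate 1 and orange replicate 2. The genes were chosen on the filled circles, and 11 of them, all plotted, are above 50% in all 4 values.

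The 31 genes were selected on the first quantification, and the second gave a lower mean share for 24 of them. In 11 of them all 4 values were above 50%, Bak1, Hnrnpa1, Khnyn, Ddx5, Tmf1, Ciao2b, Senp2, Ccdc167, Rabggtb, Stard9 and Nlrp1b. By the second quantification alone 15 genes met the condition. Rpl12 went from 51.4% and 60.3% to 19.3% and 23.04%, and Mx1 from 60.4% and 57.6% to 28.9% and 31.2%. Which transcripts the reads of these genes came from is thus not settled by the tables.

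Genes of splicing regulators had NMD shares across a wide range. SR proteins bind exons and recruit the spliceosome, and the poison exons of their genes are textbook targets of decay. Of 13 SR genes 12 reached 5 TPM and 11 had NMD isoforms, 19 in all. Over all 4747 genes with a protein-coding isoform at that level, 34.1% had NMD isoforms. The median share over these 11 genes was 5.32% in replicate 1 and 3.81% in replicate 2, against 3.81% and 2.44% over all 1618 genes, and 4 of the 11 were above 10% in both libraries, against 358 of all 1618 (22.1%). By the second quantification the SR medians were 7.52% and 9.84%, against 7.97% and 6.62% over all genes, so that they were lower in replicate 1 and higher in replicate 2. In 13 of the 19 isoforms the stop lay in an exon outside the protein-coding exons, as in 571 of all 2757 members. Not all of these are cassette exons, since in Srsf4-204 it is exon 1 of 6.

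Tra2a stood highest among the SR genes. Tra2a-202, the sequence shown above, held 29.3% and 33.8% of the gene's TPM on 1462 and 1061 counts, and 53.8% and 45.2% by the second quantification. Srsf4 followed with 22.6% and 16.1% and Srsf6 with 21.3% and 17.3%. Srsf3-201, which contains the poison exon of Srsf3, held 18.3% and 15.2% on 1035 and 478 counts. Srsf2 lay at 5.02% and 10.1%, Tra2b at 5.74% and 3.43%, Srsf7 at 5.32% and 3.81%, and Srsf1 at 4.94% and 2.71%. Srsf11 (2.82% and 1.33%), Srsf9 (2.86% and 0) and Srsf5 (0.143% and 0.425%) were lowest by the mean of the first quantification. By the second, Srsf11 gave 13.1% and 16.1% and Srsf9 7.52% and 9.84%, while Srsf5 stayed at 0.126% and 0.518%. The order within the groups Srsf4, Srsf6 and Srsf3, and Srsf2, Tra2b, Srsf7 and Srsf1, is not resolved by these replicates in the first quantification. By the second, Srsf4 gave 39.8% and 44.1%, Srsf6 23.7% and 28.6%, and Srsf3 14.15% and 12.15%. In 10 of the SR genes retained-intron isoforms were also annotated, and they held between 15.1% and 90.7%, with medians of 46.1% and 53.2%.

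**Figure D3:**
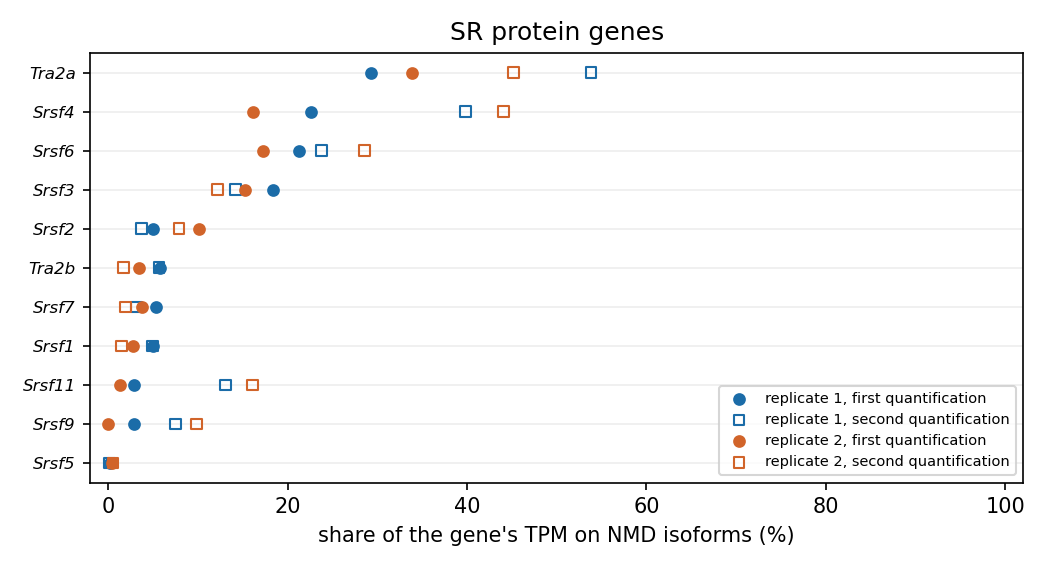
Share of the gene's TPM on NMD isoforms (percent) in the 11 SR protein genes with such isoforms, ordered by the mean of the first quantification. Filled circles are the first and open squares the second quantification, blue replicate 1 and orange replicate 2. Tra2a, Srsf4, Srsf6 and Srsf3 lie above 10% in all 4 values and Srsf5 below 1%.

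Other RNA-binding proteins included some of the highest shares. Of 51 genes for hnRNPs and other splicing proteins, 48 reached 5 TPM and 39 had members. The median shares of these 39 were 11.0% and 5.42%, and 13 of them were above 10% in both libraries, against 358 of all 1618 (22.1%). By the second quantification the medians were 8.34% and 7.24%, near the 7.97% and 6.62% of all these genes. Hnrnpa1, an abundant pre-mRNA packaging protein, gave 80.7% and 81.8% over 2 isoforms. Within it Hnrnpa1-203 held 44.6% in replicate 1 and 20.0% in replicate 2, and Hnrnpa1-204 held 36.1% and 61.9%. The gene's share thus moved by 0.790 points (SD) while its 2 isoforms exchanged place in the first quantification. By the second, Hnrnpa1-204 was the higher in both libraries, with 39.0% and 57.7%, against 30.3% and 11.5% on Hnrnpa1-203. Hnrnpd, which binds AU-rich elements of cytokine mRNAs, gave 52.1% and 53.2% over 4 isoforms. The second quantification gave Hnrnpd 34.3% and 46.55%. Processed copies of Hnrnpa1 and of ribosomal protein genes exist in the genome, so their counts are uncertain.

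Ddx5, an RNA helicase of splicing and transcription, combined a high level with a high share. Its NMD isoforms held 69.6% and 61.2% of 307 and 300.5 TPM. Ddx5-208 keeps 1 whole intron of a protein-coding isoform, with 1265 bases outside the protein-coding exons and no junction that the protein-coding isoforms lack. Its share went from 68.0% in replicate 1 to 39.0% in replicate 2, and that of Ddx5-205 from 1.62% to 22.3%. By the second quantification the gene's share was 71.6% and 60.03%, close to the first, with 51.4% and 30.7% on Ddx5-208. Ccnl1, a cyclin of splicing kinases, gave 44.96% and 40.8% over 5 isoforms, and in all 5 the stop lay in an exon outside the protein-coding exons.

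By level, 8 genes supplied 24.4% of all NMD isoform TPM. Lilr4b, an inhibitory immunoglobulin-like receptor gene, led with 358 and 288 TPM on 2 NMD isoforms, 27.7% and 24.9% of the gene. Ddx5 followed with 214 and 184 TPM, Mx1 with 255 and 103, Oasl2 with 151 and 155 and Rgs1, a regulator of G-protein signalling, with 125 and 86.7. Gbp5 gave 90.9 and 42.8 TPM, Oas1g 77.2 and 37.7, and Ccnl1 61.8 and 44.8. The members Lilr4b-204, Mx1-205, Oasl2-205 and Rgs1-204 carried most of it in their genes. Lilr4b and the Oas and Gbp genes have close relatives in the genome, which makes the assignment of their reads uncertain.

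Interferon-stimulated genes, which encode antiviral proteins, had members in 13 of 48 cases. All 48 reached 5 TPM. Their median NMD share was 5.04% in replicate 1 and 7.84% in replicate 2, and 4 of 13 were above 10% in both libraries, against 22.1% of all 1618 genes. By the second quantification the medians were 15.2% and 20.6%, against 7.97% and 6.62% over all 1618 genes. Mx1, a GTPase that blocks influenza virus, gave 60.4% and 57.6%. Laboratory strains such as C57BL/6 are known to carry an Mx1 gene that lacks coding exons, and the reference annotation describes that strain. By the first quantification Mx1-205 held 46.5% and 49.3%, and by the second 3.68% and 0.532%, where Mx1-203 held 15.5% and 26.2%. The guanylate-binding protein gene Gbp5 lay at 34.5% and 21.9% and Oasl2 at 28.3% and 28.0%. Outside the list Gbp4-202 held 56.5% and 61.5% of Gbp4, and Oas1g-203 63.3% and 54.0% of Oas1g.

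Genes of TLR4 and NF-κB signalling had members in 10 of 48 genes that reached 5 TPM. Over all 4747 genes with a protein-coding isoform at that level, 34.1% had members. The 10 genes had a median share of 4.49% and 2.86%, against 3.81% and 2.44% over all 1618 genes with members. By the second quantification the medians were 2.74% and 4.30%, against 7.97% and 6.62%. In the first quantification 1 of the 10 was above 10% in both libraries, against 22.1% of all 1618. That gene was Cd40, a costimulatory receptor, with 16.7% and 12.2% on 2 isoforms. Cd40-207, which keeps 1 intron of a protein-coding isoform, held 11.9% and 4.45% of the gene. Ikbkb, the IκB kinase β, lay at 9.43% and 9.06%, and Nfkb1, an NF-κB subunit, at 5.08% and 10.4%. Antigen presentation genes had members in 6 of 29 and medians of 3.70% and 0.945%. H2-Eb1, an MHC class II chain, gave 46.6% and 69.9%. Psme1, a proteasome activator subunit, gave 6.90% in replicate 1 and 63.2% in replicate 2 on 44.8 and 270 counts of a 439-base isoform, so its level is not settled by these libraries. Among 9 lysosomal and macrophage genes with members, out of 45 at 5 TPM, the medians were 1.15% and 0.802%. Only Ctsh of these 9 was above 10% in both, against 22.1% of all 1618 genes. The integrin gene Itgb2 gave 1.15% and 34.8%, and the Fc receptor gene Fcgr1 24.2% and 0. Medians by the second quantification were 4.34% and 8.51% for these 9 genes and 6.22% and 6.30% for the antigen presentation genes.

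Ribosomal protein genes had members in 16 of 77 cases, with a median share of 6.29% and 6.47%. Over all 4747 genes with a protein-coding isoform at 5 TPM, 34.1% had members. The median share over those 1618 genes was 3.81% and 2.44%. Rpl12 exceeded 50% in both libraries, with 51.4% and 60.3%. Rpsa lay at 48.0% and 29.7%. Translation factor and tRNA synthetase genes had members in 14 of 40, with medians of 3.55% and 5.02%. The elongation factor gene Eef1b2 led with 42.6% and 57.2%, the glutaminyl-tRNA synthetase gene Qars gave 27.6% and 44.6%, and Eif4a2, an RNA helicase of initiation, 12.1% and 19.1%. Respiratory chain genes had members in 12 of 40 and medians of 0.910% and 0, led by Atp5f1, an ATP synthase subunit, at 25.4% and 34.9%. Of the stress-response genes under ATF4 and the unfolded protein response, 3 of 15 had members: Cars gave 22.8% and 15.7%, the chaperone gene Hspa5 25.2% and 12.4%, and Herpud1 0 and 9.28%. From expected counts the shares were lower, 5.16% and 3.10% for Cars, 3.44% and 1.455% for Hspa5, and 0 and 4.46% for Herpud1. Cars-211 is 558 bases long and had 28.8 counts in replicate 2, and Hspa5-204 is 477 bases long. List medians by the second quantification were 6.91% and 7.32% (ribosomal), 8.98% and 9.38% (translation and tRNA synthetase) and 4.89% and 3.68% (respiratory chain). The median of the 3 stress-response genes was 18.9% and 14.6%, and that of all 1618 genes 7.97% and 6.62%.

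All 26 listed genes of the pathway and of the exon junction complex had counts in both libraries, and 16 reached 5 TPM in both. Smg1, the kinase that phosphorylates UPF1, was highest with 36.5 and 52.5 TPM. Upf1 lay at 9.09 and 7.53 TPM and Upf2 at 3.72 and 4.37. Smg6, the endonuclease of the pathway, lay at 3.19 and 3.28 TPM, and Eif4a3, the RNA anchor of the exon junction complex, at 9.60 and 11.7. Of the 16 genes only Smg1, Smg5 and Dcp1a had members, 4 in all, with shares of 0.0274% and 0 in Smg1, 4.17% and 3.50% in Smg5 and 0 and 0.783% in Dcp1a. By the second quantification they were higher, 12.8% and 4.96%, 6.72% and 5.26%, and 10.9% and 13.7%.

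The share of a member varied with how many of its bases lie outside the protein-coding exons of its gene. Other NMD isoforms of the gene can hold the same bases, so they are not always unique to the member. Of the 2757 members, 1146 have no base outside the exons of protein-coding isoforms of their gene. These members can be told apart from those isoforms only by junctions and ends. Their median isoform share was 0.655% in replicate 1 and 0 in replicate 2. Medians were 2.88% and 2.14% with 201 to 500 bases outside protein-coding exons (n = 271). They were 6.92% and 5.86% with 501 to 1000 such bases (n = 101), and 8.90% and 9.87% above 1000 (n = 119). In the last group 47 members (39.5%) were above 10% in both libraries, against 325 of all 2757 (11.8%). The second quantification gave medians that ran from 1.28% and 0.547% to 8.19% and 12.2%. Length moved with it, since the median member was 877 bases long in the first group and 3279 in the last.

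**Figure D4:**
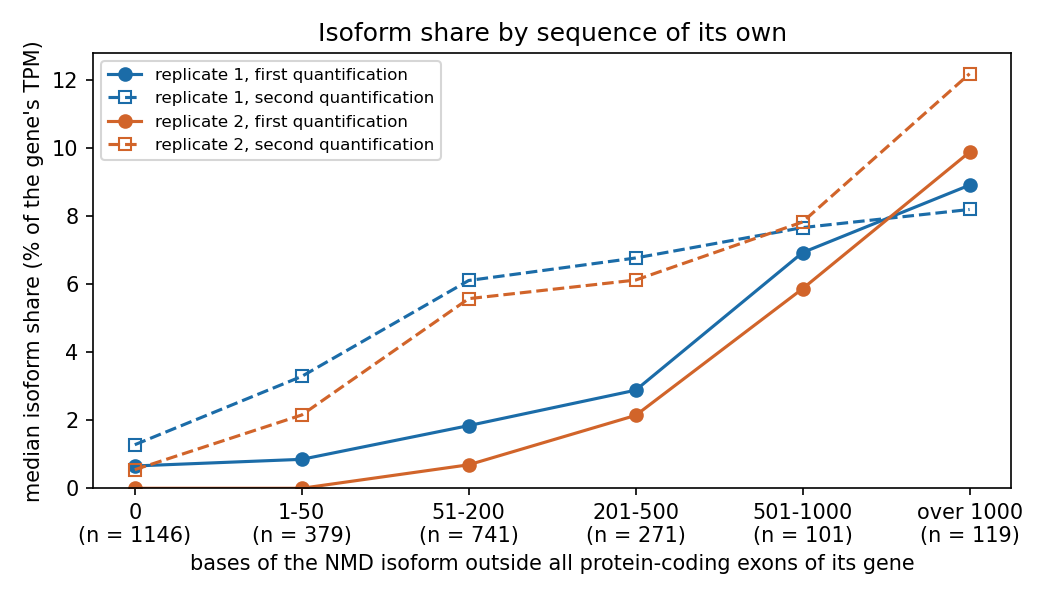
Median isoform share (percent of the gene's TPM) of NMD isoforms, grouped by the number of their bases that lie outside all protein-coding exons of the gene. Filled circles with full lines are the first and open squares with dashed lines the second quantification, blue replicate 1 and orange replicate 2. Medians run from 0.655% and 0 with no such base to 8.90% and 9.87% above 1000 bases.

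Members that keep an intron of a protein-coding isoform had higher shares than the others. There were 171 of them, with medians of 7.15% and 5.92%, against 1.37% and 0.360% for the other 2586, and 29.2% against 10.6% were above 10% in both libraries. They were also longer, with a median of 2568 against 942 bases. Nuclear RNA contains unspliced transcripts, whose reads can be assigned to any annotated isoform that includes the intron. Their part in these shares was not tested. By the layout of the stop, medians were 3.60% and 2.45% for a stop in an extended exon or kept intron, 2.80% and 0.990% for the stop of a protein-coding isoform, 1.75% and 0.950% for a separate exon and 1.06% and 0 for a protein-coding exon. The second quantification ordered the layouts differently, with 6.76% and 6.60% for a separate exon, 5.59% and 4.79% for an extended exon or kept intron, 3.46% and 2.69% for the stop of a protein-coding isoform and 2.38% and 1.33% for a protein-coding exon. By annotation quality, the 684 members of transcript support level 1 had medians of 4.21% and 2.79%, and the 967 of level 5 had 0.650% and 0.

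Across the 2757 isoforms the share in replicate 1 and replicate 2 had a Pearson r of 0.844 and a Spearman rho of 0.717, and the median absolute difference was 1.03 points, against median shares of 1.53% and 0.540%. These points are isoforms of the same 2 libraries and not replicates. Between the first and second quantification, r was 0.709 and rho 0.672. Among the 502 members with at least 50 counts in both libraries, 8 were over 20 points higher in replicate 2 and 8 over 20 points lower, 1.59% each. For all isoforms of these genes with as many counts it was 2.04% higher and 1.78% lower.

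**Figure D5:**
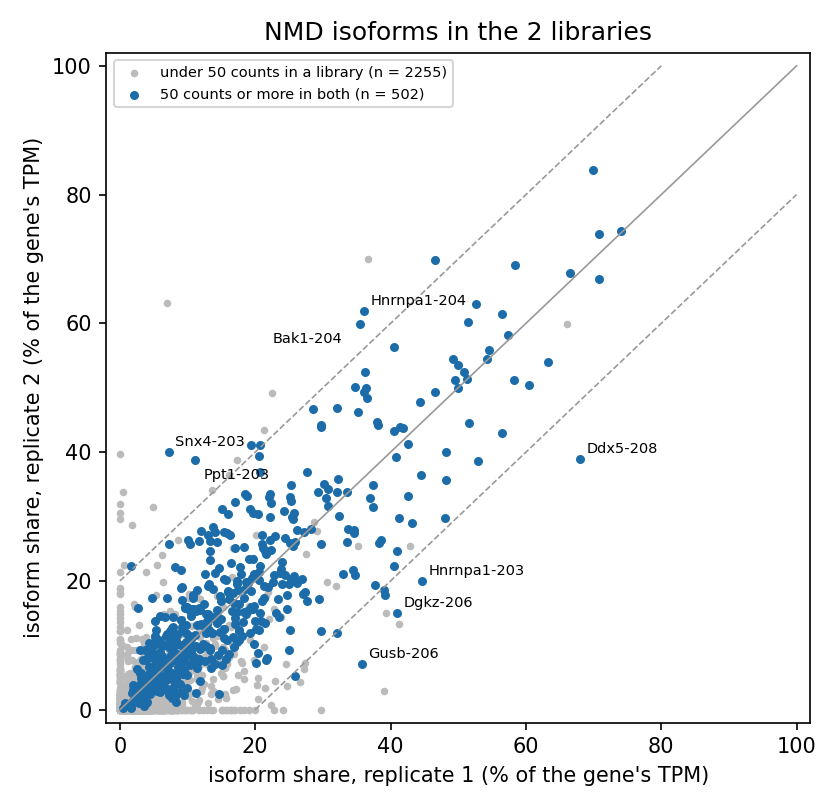
Isoform share of each NMD isoform (percent of the gene's TPM, first quantification) in replicate 1 against replicate 2. Blue points are the 502 members with at least 50 counts in both libraries, grey points the rest; the full line marks equal shares and the dashed lines a difference of 20 points. The 4 largest differences in each direction among the 502 are named, from Snx4-203 above the line to Ddx5-208 and Gusb-206 below it.

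Among members with at least 50 counts in both libraries, the 4 largest differences between the replicates in each direction include those of Ddx5-208, Hnrnpa1-203 and Hnrnpa1-204 above. Snx4-203, of an endosomal sorting nexin, went from 7.27% to 40.1%, and Ppt1-203, of a lysosomal thioesterase, from 11.1% to 38.7%. Gusb-206, of the lysosomal β-glucuronidase, went from 35.8% to 7.05%, and Dgkz-206, of a diacylglycerol kinase, from 41.0% to 15%. Bak1-204 went from 35.5% to 59.9% while Bak1-201 went from 43.1% to 29.0%. The second quantification moved the same way for 5 of these 6, for Snx4-203 from 15.9% to 27.0%, for Ppt1-203 from 22.3% to 41.9%, for Gusb-206 from 26.6% to 6.995%, for Dgkz-206 from 37.8% to 26.3% and for Bak1-204 from 20.2% to 46.3%. Bak1-201 went the other way there, from 38.8% to 43.5%. Depth and starting amount differed between these libraries as well (1 µg of RNA for replicate 1 and 500 ng for replicate 2), and their part was not tested.

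For each direction, the 4 genes with the largest gap between the quantifications, among those with at least 200 counts, were examined. Ifngr2, an interferon-γ receptor chain, was listed at 0 in both libraries by the first and at 50.8% and 45.7% by the second, on Ifngr2-202, which has no base outside protein-coding exons. Dtnbp1 went from 16.8% and 11.2% to 70.0% and 69.3%, Rp2 from 2.20% and 1.01% to 50.6% and 48.8%, and Ripk2, a kinase of the NOD pathway, from 3.70% and 1.82% to 42.0% and 51.2%. In the other direction Brpf3 went from 47.9% and 39.2% to 12.4% and 5.51%, and Gga1 from 49.5% and 51.2% to 16.6% and 24.6%. Ppcdc and Rpl12 are the other two. Since these genes were chosen by the gap, its size in them is a description.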

How the data were processed

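Total RNA-seq of 2 libraries was used, 1 group of 2 replicates by the labels. The deposited tables refer to mm10 and GENCODE M21, per the file headers. In the first quantification, whose columns are those RSEM writes, the authors' tables give expected counts per gene and transcript, in which shared reads are split by a model, and TPM per effective length. They also give a deposited percent, each isoform's share of its gene's TPM, a posterior mean TPM, and a deposited credibility interval whose bounds, a signal on the TPM scale, were not used. In the second, with the columns kallisto writes, the deposited estimated counts and TPM are per transcript. No source used here states the aligner, the software versions or the use of strand, so overlapping and antisense genes can share reads.

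Isoform shares are percents of the summed TPM of the gene's own annotated transcripts, joined by transcript ID. Stops, exons and sequences come from GENCODE M21. An intron was kept where an exon spans it whole. Replicates differed beyond counting noise (chi-square of 150 per degree of freedom over 14808 genes). No test was run, as there is 1 group. Functions were tested on simulated data. Members, lists and alternatives were chosen with earlier results of these data known. Named were the 15 highest isoform shares on at least 50 counts, the 8 genes of highest NMD TPM, the 3 highest genes per list with all SR and decay genes, and the 4 largest differences per direction between replicates and between quantifications (genes of at least 200 counts). The genes Slc4a7 and Rabggtb, and those of the 31 outside this rule, were chosen after their values were seen. Shares carry no interval for counting error, since reads are assigned by a model. Python 3.11.15 with pandas 2.3.3, numpy 2.4.6 and scipy 1.17.1 was used. Some genes that these rules name are not reported here.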

Additional observations from a re-analysis of the deposited data

How the results depend on the processing

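The median NMD share of 3.13% was 7.30% by the second quantification, 1.41% from expected counts and 4.44% from posterior mean TPM, and between 2.44% and 3.81% without either replicate. The count of 31 genes above 50% was 15 by the second quantification, 54 at a gene minimum of 1 TPM, 10 at 20 TPM and 97 with no filter, which change the number of genes, and between 36 and 46 without either replicate. The percent of NMD isoforms at 0, 26.04%, was 15.6% by the second quantification and 38.3% with no filter. It was between 30.9% and 45.5% without either replicate, where only 1 library must be at 0. By posterior mean TPM it was 0%, an outcome fixed in advance, since a posterior mean does not reach 0. The median NMD share minus retained-intron share, -28.4 points, was -24.1 with no filter and -16.1 from expected counts, and between -30.4 and -26.4 without either replicate. It was negative in every alternative run. Leaving out isoforms that keep an intron, and posterior mean TPM, were chosen after the data were seen. Without intron-keeping isoforms the median was 2.50% and the count 25. Of 68 named genes, 43 moved by more than the SD of the replicates under the second quantification and 37 under expected counts. The cause was not tested. No paired analysis was possible because there is 1 group. Depth limits single isoforms most: 2255 of 2757 members had under 50 counts in a library.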
